A study of Mus musculus with 3 samples.

Results

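Acyl-CoA thioesterases were read in the livers of mice fed a high-fat diet with iron (HF+SFC), the same high-fat diet without it (HF) or a control diet (Control). The group held 8 genes, Acot2, Acot3, Acot4, Acot7, Acot8, Acot9, Acot12 and Acot13, of the 18193 genes that the array annotation names alone on a probe set. All 12 probe sets that name 1 of these genes alone were taken, together with the 1 probe set that names only Acot1 and Acot2 and is reported as shared. All groups were male C57BL/6J mice and differed by diet alone. HF+SFC mice received the diet with 60% of energy from fat plus 0.023% by weight of sodium ferrous citrate, an iron supplement, HF mice received that diet alone, and Control mice received a diet with 10% of energy from fat. The control diet also held more sucrose, which the paper lists as a limitation, so HF over Control is not a contrast in fat alone. Feeding began at 6 weeks of age and lasted 15 weeks, and mice were fasted before tissues were collected. The labels give an age of 21 months to each sample, which does not match these times and was not used. The material of all mice of a group was mixed before hybridisation, so that each group is 1 pool on 1 array, and how many mice were in a pool is not given in the sources used here. Without replicates the groups could not be tested against each other, and p-values are left out.

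Acyl-CoA thioesterases split the thioester of an acyl-CoA, releasing a free acid and coenzyme A. They act against the acyl-CoA synthetases, which build these esters, and so set how much activated fatty acid is at hand for oxidation and lipid synthesis and how much free coenzyme A is left in a compartment. Type I enzymes (Acot1 to Acot6 in the mouse) belong to the α/β-hydrolase fold, are very similar in sequence and lie side by side on chromosome 12, and type II enzymes (Acot7 to Acot13) have the hotdog fold. In mouse liver several type I genes are known as targets of PPARα, the nuclear receptor that is activated by fatty acids in fasting.

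Values are MAS5 signals, intensities on a linear scale, and differences are log2 ratios of 2 arrays. A signal is compared here only with the same probe set on another array, since probe sets differ in brightness for the same amount of RNA. Each gene is represented by its brightest probe set, by mean log2 signal over the arrays, and was kept where that mean reached the upper 50% of probe sets, a signal of 76.9 or more. A kept gene was counted as higher or lower at 1.5-fold, the threshold of the study. Of the 12 single-gene probe sets, 11 were kept, and these 11 lay above that signal on every array. All 8 genes were kept, 7 of them in the upper 25% of signal. In place of replicates, the disagreement in log2 ratio among probe sets for the same gene was used, over 5020 genes with 2 or more kept probe sets. Its SD was 0.33 in HF+SFC over HF, 0.35 in HF over Control and 0.36 in HF+SFC over Control, and in the upper 25% of signal 0.17, 0.20 and 0.20. This SD comes from within the same arrays, so it leaves out variation between mice and between pools. None of the 9 spiked-in hybridisation controls differed by 1.5-fold in any comparison. The median log2 ratio over all 11341 kept genes was -0.01, 0.03 and 0.02 in the same order of comparisons.

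With the high-fat diet, the lowest ratios to Control were those of the type I members and Acot8, and the highest was that of Acot9. Compared with Control, 4 of the 8 genes were at least 1.5-fold lower in HF (Acot2, Acot3, Acot4 and Acot8) and 1 was at least 1.5-fold higher (Acot9). Of all kept genes, 5.84% were lower and 11.3% higher by that measure, and in the upper 25% of signal, where Acot9 was not kept and 4 of 7 members were lower and 0 higher, 4.14% and 6.50%. At 2-fold, Acot2 and Acot3 were lower and 0 members higher, where 1.69% of all kept genes were lower and 3.45% higher. The median of the 8 log2 ratios was -0.50, and 6 of them were below 0. With so few genes the median moved to -0.25 without Acot3, whose probe set is ambiguous, and to -0.75 without Acot9. By fold family, 3 of 3 type I members were lower, whereas among the 5 type II members 1 was lower, 1 higher and 3 inside 1.5-fold. By the compartment the enzymes are known for, 3 of 3 peroxisomal members were lower, the 3 mitochondrial ones comprised 1 lower, 1 higher and 1 inside, and both cytosolic ones were inside. The other kept type I genes, Acot1 and Acot6, are not members and stood at -2.77 and -0.24. Acot6 is peroxisomal too, so these shares hold for the members only.

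**Figure D1:**
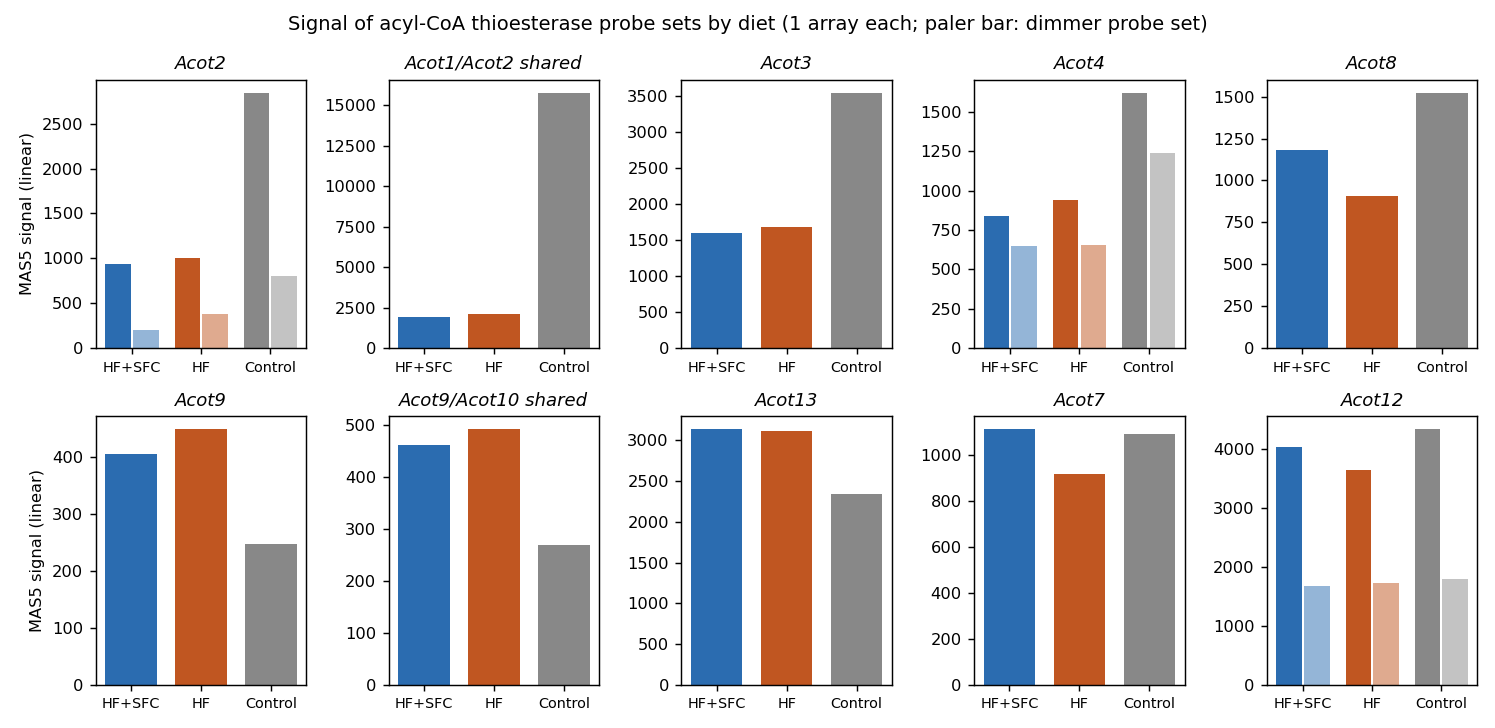
MAS5 signal (y axis, linear, from 0) of each kept probe set of the member genes and of the 2 shared probe sets in HF+SFC (blue), HF (orange) and Control (grey), 1 array each; the paler bar is the dimmer probe set of a gene. Acot2, Acot3 and Acot4 are highest in Control and alike in both high-fat groups except for the dimmer Acot2 probe set, while Acot9 is lowest in Control.

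Acot2 is the mitochondrial type I enzyme, which acts on long-chain acyl-CoA in the matrix. Its brighter probe set had a signal of 934 in HF+SFC, 1005 in HF and 2848 in Control. Both high-fat arrays were thus far below Control and close to each other. The log2 ratio of HF over Control was -1.50, a 2.83-fold difference, which ranked 52nd from the lowest of 11341 genes. The dimmer probe set had 199.7 in HF+SFC, 377 in HF and 803 in Control, a log2 ratio of -1.09 for HF over Control. Both probe sets therefore put HF more than 2-fold below Control, and they differed by 0.41, a gap reached by 32.4% of the 2914 genes with 2 kept probe sets.

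The probe set shared by Acot1 and Acot2 had a signal of 1916 in HF+SFC, 2095 in HF and 15770.3 in Control. It was 7.53-fold lower in HF than in Control, or -2.91 on the log2 scale, and is not counted among the 8 genes. Acot1 is the cytosolic counterpart of Acot2 and nearly identical to it in sequence, so that transcripts of either gene can bind here. The probe set that names Acot1 alone had 2321, 2265 and 15460.1 in HF+SFC, HF and Control, with a log2 ratio of -2.77 for HF over Control. The shared ratio was 0.14 below that of Acot1 and 1.41 below that of the brighter Acot2 probe set, and how much of the shared signal came from each gene cannot be told apart.

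Acot3 and Acot4 are peroxisomal type I enzymes. Acot3 hydrolyses medium- and long-chain acyl-CoA, and Acot4 hydrolyses succinyl-CoA and dicarboxylic acyl-CoA. Acot3 had a signal of 1599 in HF+SFC, 1683 in HF and 3548 in Control, and was 2.11-fold lower in HF than in Control (log2 ratio -1.08). Its only probe set has a suffix that marks a match to several transcripts, so that paralogs may add to it. Acot4 had 841 in HF+SFC, 941 in HF and 1624 in Control by its brighter probe set, and 648, 656 and 1238 in HF+SFC, HF and Control by the dimmer one. Its log2 ratios of HF over Control were -0.79 and -0.92, 1.73-fold and 1.89-fold lower. Acot3 ranked 161st and Acot4 337th from the lowest of 11341 genes. Both probe sets of Acot4 separated the high-fat arrays from Control, and the gap between them, 0.13, was below the median gap of 0.26 for genes with 2 kept probe sets.

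The type I genes are adjacent in the mouse genome, in the order Acot2, Acot1, Acot4, Acot3, Acot5 and Acot6 on chromosome 12, with 0 other protein-coding genes between them. Of these 6 genes 5 were kept. The low values were held by the first 4 genes of the row. Acot6, whose enzyme is peroxisomal, had 131, 159 and 188 in HF+SFC, HF and Control, a log2 ratio of -0.24 for HF over Control. Its other probe set, which was not kept, had 77.6 in HF+SFC, 94.5 in HF and 44.8 in Control. That gives a log2 ratio of 1.08 for HF over Control, on the other side of 0. Acot5 was below the kept signal, with 3.05 in HF+SFC, 3.01 in HF and 6.81 in Control. Beyond the cluster, the 6 nearest kept genes on each side were set beside it, a choice made after the values were seen. Of these 12 genes 0 were 1.5-fold higher or lower in HF than in Control. Their log2 ratios ran between -0.38 and 0.52, with a median of -0.19, and the lowest of them, Numb, stood above Acot4, Acot3, Acot2 and Acot1 alike. The flanking genes were not quiet in the other comparisons. Dnal1, with 54.0 in HF+SFC, 95.8 in HF and 119 in Control, was at -0.83 in HF+SFC over HF and at -1.14 in HF+SFC over Control, close to Acot3 at -1.15 and below Acot4 at -0.95. Coq6 was at 0.60 in HF+SFC over Control, and the remaining 10 were inside 1.5-fold in all comparisons.

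**Figure D2:**
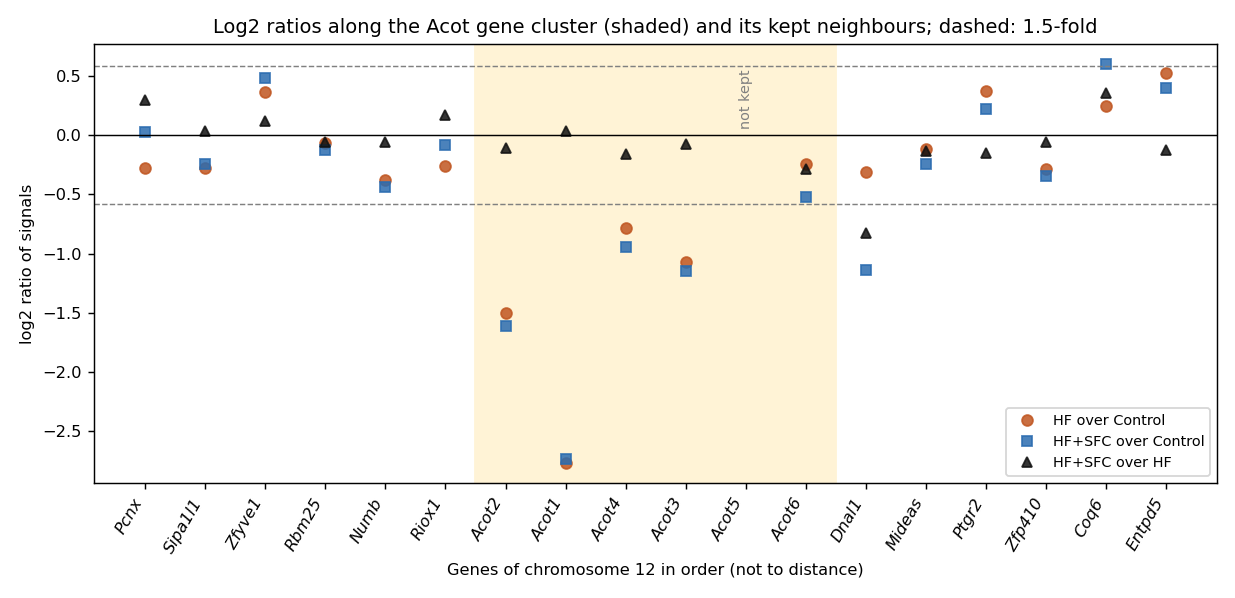
Log2 ratios (y axis) of HF over Control (circles), HF+SFC over Control (squares) and HF+SFC over HF (triangles) for the kept genes of chromosome 12 in gene order (x axis, not to distance), with the Acot cluster shaded and dashed lines at 1.5-fold. Acot2, Acot1, Acot4 and Acot3 lie between -2.77 and -0.79 for HF over Control, while the 12 flanking genes lie between -0.38 and 0.52; in HF+SFC over Control the flanking gene Dnal1 lies at -1.14.

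The stretches before the start sites of Acot2, Acot1, Acot4 and Acot3, the kept cluster genes that were low together, are shown. Those of Acot8 and Acot9 are shown because these genes were the other members beyond 1.5-fold. Each is the 100 bases just upstream of the start, taken from RefSeq promoter windows of GRCm38.p6, in which 7 of the 8 member genes matched, all but Acot13. The positions are chr12:83987761-83987860 for Acot2, chr12:84009402-84009501 for Acot1, chr12:84038279-84038378 for Acot4 and chr12:84052044-84052143 for Acot3, all on the + strand, chr2:164804882-164804981 on the - strand for Acot8, and chrX:155262343-155262442 on the + strand for Acot9. Capitals mark the CCAAT box (CCAAT, either strand) and, at the end of the Acot4 stretch, a match to a relaxed form of the direct repeat that PPARα binds with RXR.
Acot2: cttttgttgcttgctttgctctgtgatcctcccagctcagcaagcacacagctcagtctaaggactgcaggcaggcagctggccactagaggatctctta
Acot1: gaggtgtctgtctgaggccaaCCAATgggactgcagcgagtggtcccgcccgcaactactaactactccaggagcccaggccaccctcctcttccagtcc
Acot4: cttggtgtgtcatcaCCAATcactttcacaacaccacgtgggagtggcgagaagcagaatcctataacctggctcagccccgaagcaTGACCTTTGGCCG
Acot3: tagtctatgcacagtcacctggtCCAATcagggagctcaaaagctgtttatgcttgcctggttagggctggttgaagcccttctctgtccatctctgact
Acot8: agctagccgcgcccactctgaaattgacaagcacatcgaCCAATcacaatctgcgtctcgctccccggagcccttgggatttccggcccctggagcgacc
Acot9: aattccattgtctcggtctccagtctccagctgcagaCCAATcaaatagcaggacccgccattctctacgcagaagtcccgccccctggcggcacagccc
The CCAAT box was in 5 of these 6 stretches and in 18.9% of the 32851 windows of the same length, and Acot2 was the stretch without it. Farther upstream, at -244, Acot2 holds the box too. The stretches were picked by the ratios of their genes and include similar neighbouring genes. Those of Acot7 and Acot12 are not shown, and no CCAAT box was found in their whole 300-base windows. Whether the box goes with lower or higher signal was not tested. The repeat in its consensus form, AGGTCA, 1 base and AGGTCA again on either strand, was in 0 of the 6 and in 0.0152% of all windows. In the relaxed form, NGGNCA, 1 base and AGGNCA, chosen after the sequences were seen, it was in 1 of the 6, Acot4, where it fills the 13 bases just before the start on the opposite strand, and in 0.265% of all windows. A single AGGTCA lies inside this match and was likewise in 1 of the 6 and in 5.88% of all windows. Counted from the start, the first base of the box lay at -85 in Acot4, -79 in Acot1, -77 in Acot3, -63 in Acot9 and -61 in Acot8. These are matches of letters only. In all other stretches the relaxed form has no match, which says nothing about binding elsewhere.

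Acot8 is the peroxisomal type II enzyme of broad substrate range, which also acts on bile acid CoA esters and is inhibited by free coenzyme A. Its signal was 1184 in HF+SFC, 905 in HF and 1525 in Control. Here the HF array was lowest and the HF+SFC array lay between the other two. Acot8 was 1.68-fold lower in HF than in Control (log2 ratio -0.75), by 1 probe set only. Among the 1774 genes within 0.5 of its mean log2 signal, 3.78% were at least 1.5-fold lower in HF than in Control. For Acot2, Acot3 and Acot4 the same share among genes of like signal was 3.59%, 4.26% and 3.85%, and for Acot9 10.1% of such genes were higher.

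Acot9 and Acot13 are mitochondrial type II enzymes, and both had higher signals on the high-fat arrays. Acot9, which acts on short- and long-chain acyl-CoA in the matrix, had a signal of 405 in HF+SFC, 449 in HF and 248 in Control. It was 1.81-fold higher in HF than in Control (log2 ratio 0.86). The probe set that names both Acot9 and Acot10, a gene that is very similar to it, had 462, 492 and 269 in HF+SFC, HF and Control. Its log2 ratio of 0.87 was close to that of the probe set that names Acot9 alone. Acot13, also called Them2, prefers long-chain acyl-CoA and binds the phosphatidylcholine transfer protein. It had 3135 in HF+SFC, 3117 in HF and 2341 in Control, a log2 ratio of 0.41 for HF over Control, which is inside 1.5-fold and above the SD of 0.20 between probe sets of bright genes. Among genes of like signal, however, the SD of that ratio was 0.43, and Acot13 ranked 2112th from the highest of 11341 kept genes.

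Acot7 and Acot12 are cytosolic type II enzymes. Acot7, a long-chain acyl-CoA hydrolase best known from the brain, had 1109.8 in HF+SFC, 914 in HF and 1089 in Control, so that HF was lowest and the other arrays were alike. Its log2 ratio of HF over Control was -0.25. Acot12, which hydrolyses acetyl-CoA and is abundant in liver, had 4025 in HF+SFC, 3634 in HF and 4328 in Control by its brightest probe set, and 1678, 1720.2 and 1790.4 in HF+SFC, HF and Control by the next. The log2 ratios of HF over Control were -0.25 and -0.06, both inside 1.5-fold and on the same side of 0. The remaining Acot12 probe set was not kept, with signals of 7.69 in HF+SFC, 2.81 in HF and 5.46 in Control.

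The comparison of HF+SFC with HF addressed the addition of sodium ferrous citrate to the high-fat diet. In HF+SFC against HF, 0 of 8 genes reached 1.5-fold in either direction, where 2.88% of all kept genes were higher and 5.33% lower, so that a count of 0 among 8 is near the share over all genes. At 2-fold these shares were 0.767% and 1.19%, and in the upper 25% of signal at 1.5-fold 0.571% and 1.11%, again with 0 members. The 8 log2 ratios ran between -0.16 and 0.39 with a median of -0.03, and 4 were above 0. The median turned to 0.01 when Acot9 or Acot3 was not read. Acot8 had the highest ratio, 0.39 or 1.31-fold, followed by Acot7 at 0.28 or 1.21-fold. Acot12 stood at 0.15 by its brightest probe set and on the other side of 0, at -0.04, by the next. Acot8, Acot7 and Acot12 are the 3 type II members that were below Control in HF. Acot13 was at 0.01, with a sign that turned negative under quantile and lowess scaling. Acot4 was at -0.16, Acot9 at -0.15, Acot2 at -0.11 and Acot3 at -0.07. The ratios of Acot8 and Acot7 exceeded the SD of 0.17 between probe sets of bright genes, and each rests on 1 probe set. That SD leaves out variation between mice and pools, and the 2 genes ranked 762nd and 1269th from the highest of 11341 kept genes. HF+SFC over HF shares the HF array with HF over Control, so that noise on that array alone moves the 2 ratios in opposite directions.

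The probe sets of Acot2 disagreed in this comparison. The brighter one stood at -0.11 and the dimmer one at -0.92, a signal of 199.7 in HF+SFC against 377 in HF, or 1.89-fold lower. Their gap of 0.81 was reached by 7.96% of the 2914 genes with 2 kept probe sets, where the median gap was 0.22. The probe set shared with Acot1 stood at -0.13, on the side of the brighter one. Of the 11 kept single-gene probe sets, the dimmer one of Acot2 was the only one beyond 1.5-fold in HF+SFC over HF.

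**Figure D3:**
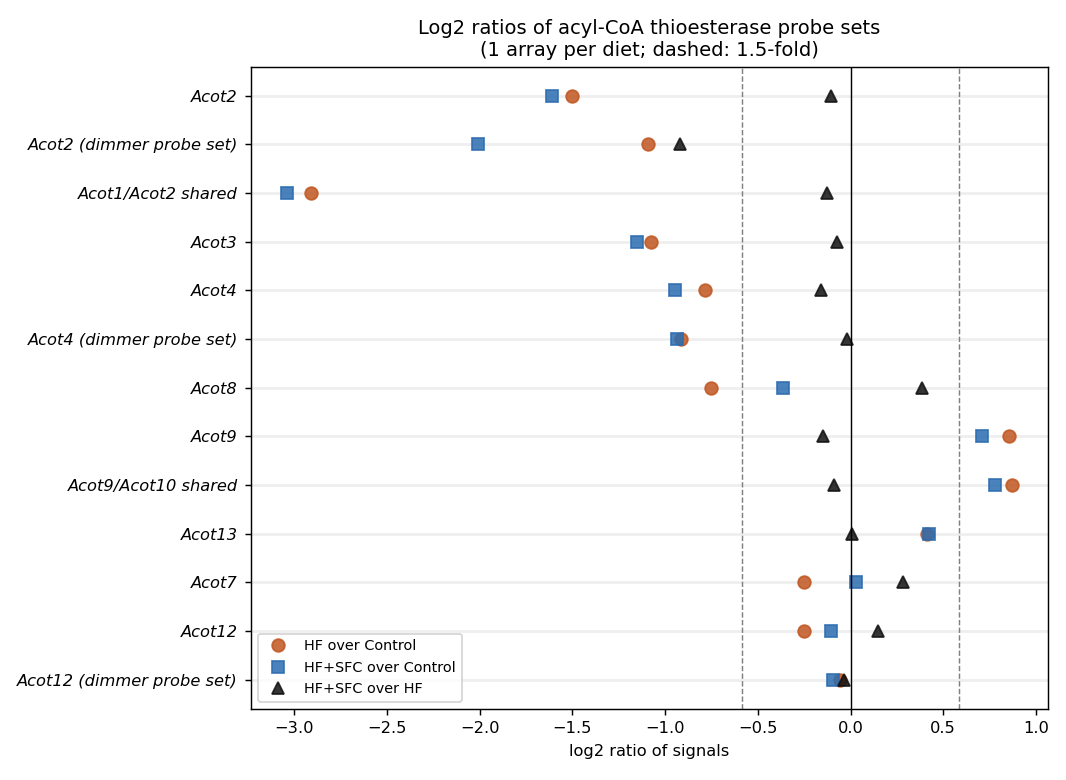
Log2 ratios (x axis) of HF over Control (circles), HF+SFC over Control (squares) and HF+SFC over HF (triangles) for each kept member probe set and the 2 shared ones (rows), 1 array per diet, with dashed lines at 1.5-fold. All triangles but that of the dimmer Acot2 probe set, at -0.92, lie inside 1.5-fold.

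**Figure D4:**
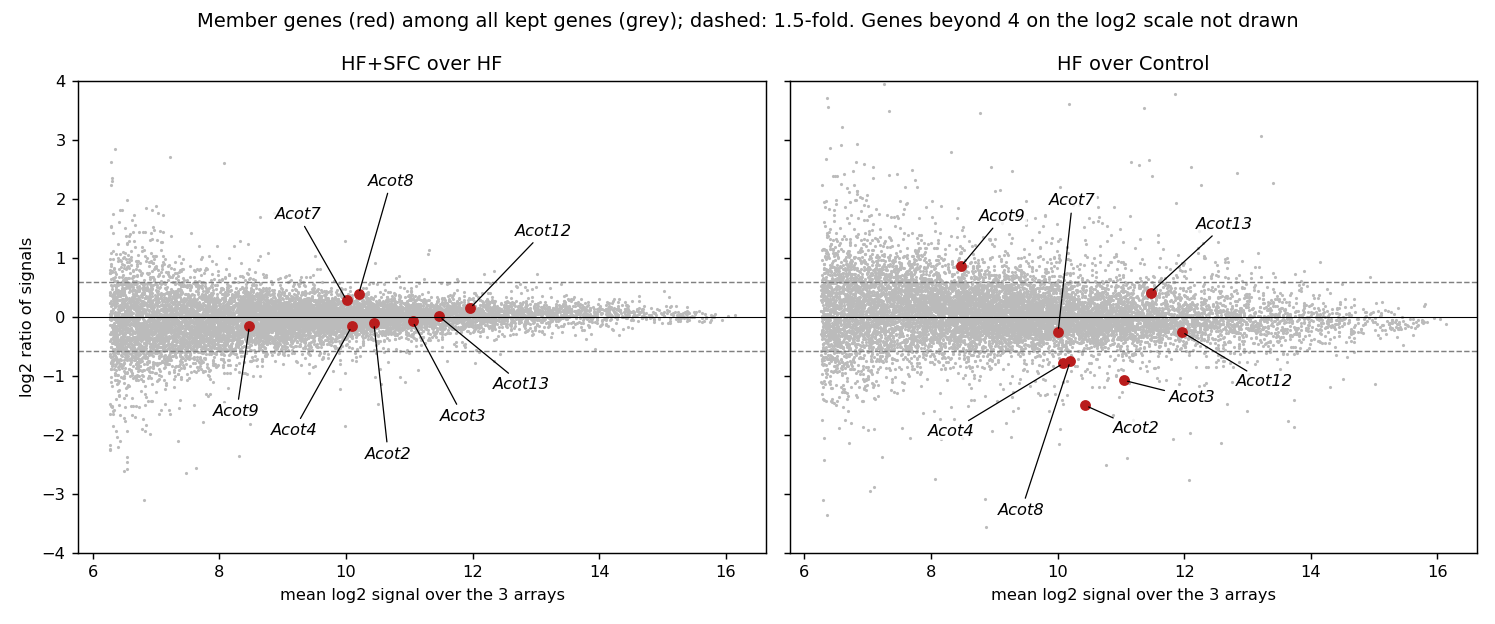
Log2 ratio (y axis) against mean log2 signal over the 3 arrays (x axis) for the 11341 kept genes (grey) and the 8 member genes (red, named), for HF+SFC over HF (left) and HF over Control (right), with dashed lines at 1.5-fold; 0 and 3 genes lie beyond the axis. The members lie inside 1.5-fold on the left, and 4 lie below and 1 above it on the right.

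Against Control, HF+SFC differed much as HF did in the type I members and less in Acot8. In HF+SFC 3 of the 8 genes were at least 1.5-fold lower and 1 at least 1.5-fold higher than in Control, where 6.88% of all kept genes were lower and 9.20% higher. In the upper 25% of signal 3 of 7 members were lower and 0 higher, against 4.48% and 6.00% of genes, and at 2-fold Acot2 and Acot3 were lower and 0 members higher, against 1.83% and 2.81%. Acot2 was 3.05-fold lower, and its log2 ratios were -1.61 by the brighter and -2.01 by the dimmer probe set. Acot3 was 2.22-fold lower (-1.15) and Acot4 1.93-fold lower (-0.95 and -0.93). Acot9 was 1.63-fold higher (0.71). Acot8, at -0.36 or 1.29-fold lower, was inside 1.5-fold, and so were Acot13 at 0.42, Acot12 at -0.10 and Acot7 at 0.03. The median of the 8 was -0.23, and it was -0.10 without Acot3 and -0.36 without Acot9. This comparison shares an array with each of the other comparisons.

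Genes that act on the same acyl-CoA pool were described through lists of known function. In HF against Control, carnitine acyltransfer genes, which carry acyl groups across membranes, were at least 1.5-fold lower in 4 of 6 kept genes and higher in 0 (median -0.72). They included Slc22a5, the carnitine transporter, at -1.84, Crat, the carnitine acetyltransferase, at -1.48, Cpt2, the inner membrane palmitoyltransferase, at -0.75 and Crot, the peroxisomal octanoyltransferase, at -0.68. The dimmer probe set of Cpt2 stood at -0.19, inside 1.5-fold. The long and very long chain acyl-CoA synthetases run the opposite reaction to the thioesterases. By the brightest probe set they were below 0 in 7 of 7 and beyond 1.5-fold in 0 (median -0.17). The dimmer probe set of Acsl3 was beyond it, at -0.63. Short and medium chain synthetases all lay above 0, and of the 6 genes 2 passed 1.5-fold, Acsm5 at 0.94 and Acsf3 at 0.93 (median 0.41). Acyl-CoA binding proteins stood at a median of -0.06, with 0 of 7 beyond. Of the genes of coenzyme A synthesis and breakdown, 2 of 13 were lower, Dcakd at -1.18 and Nudt7, a peroxisomal coenzyme A diphosphatase, at -0.65, with its 4 probe sets between -1.57 and -0.22. The median of that list was 0.01. These counts also rest on the brightest probe sets, as others of Pank1 and Pank3 reached -0.61 and 1.17. Of the other acyl-CoA thioesterases with a kept probe set, Acot1 was lower, Acot11 higher at 0.84, and Them4 and Acot6 inside 1.5-fold. Protein and fatty acyl thioesterases were higher in 2 of 9, Fasn at 0.85 and Ppt1 at 0.63, and lower in 0 (median 0.08), and the 2 kept genes of the bile acid acyltransferase family were inside 1.5-fold. Acot11, or Them1, had a signal of 392 in HF+SFC, 368 in HF and 205 in Control.

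Targets of PPARα, a list that also holds Acot1, were at least 1.5-fold lower in HF than in Control in 10 of 20 kept genes and higher in 1, Cidec at 1.41, with a median of -0.54. The 4 with the largest ratios were Pdk4 at -3.22, Acot1 at -2.77, Fgf21 at -1.80 and the peroxisomal bifunctional enzyme Ehhadh at -1.77. The member genes lower in HF were thus accompanied by low values in that list, and any shared cause was not tested. In HF+SFC over HF the PPARα targets had a median of 0.03, with 0 of 20 higher and 1 lower, again Cidec, at -0.76, and the carnitine list one of 0.06, with 0 of 6 beyond 1.5-fold by the brightest probe set. Other probe sets were beyond it in that comparison, as the dimmer one of Cpt2 stood at 1.18 and the 3 of Crat ran between -0.94 and 0.43. Of 6833 other genes in the upper 25% of signal, the 5 with the pattern over the 3 arrays nearest to that of Acot2, the member of widest range, were Spon2, G0s2, Crat, Id3 and Cdkn1a, at distances between 0.08 and 0.13 on the log2 scale. G0s2 encodes an inhibitor of adipose triglyceride lipase. Likeness over 3 arrays rests on few points.

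**Figure D5:**
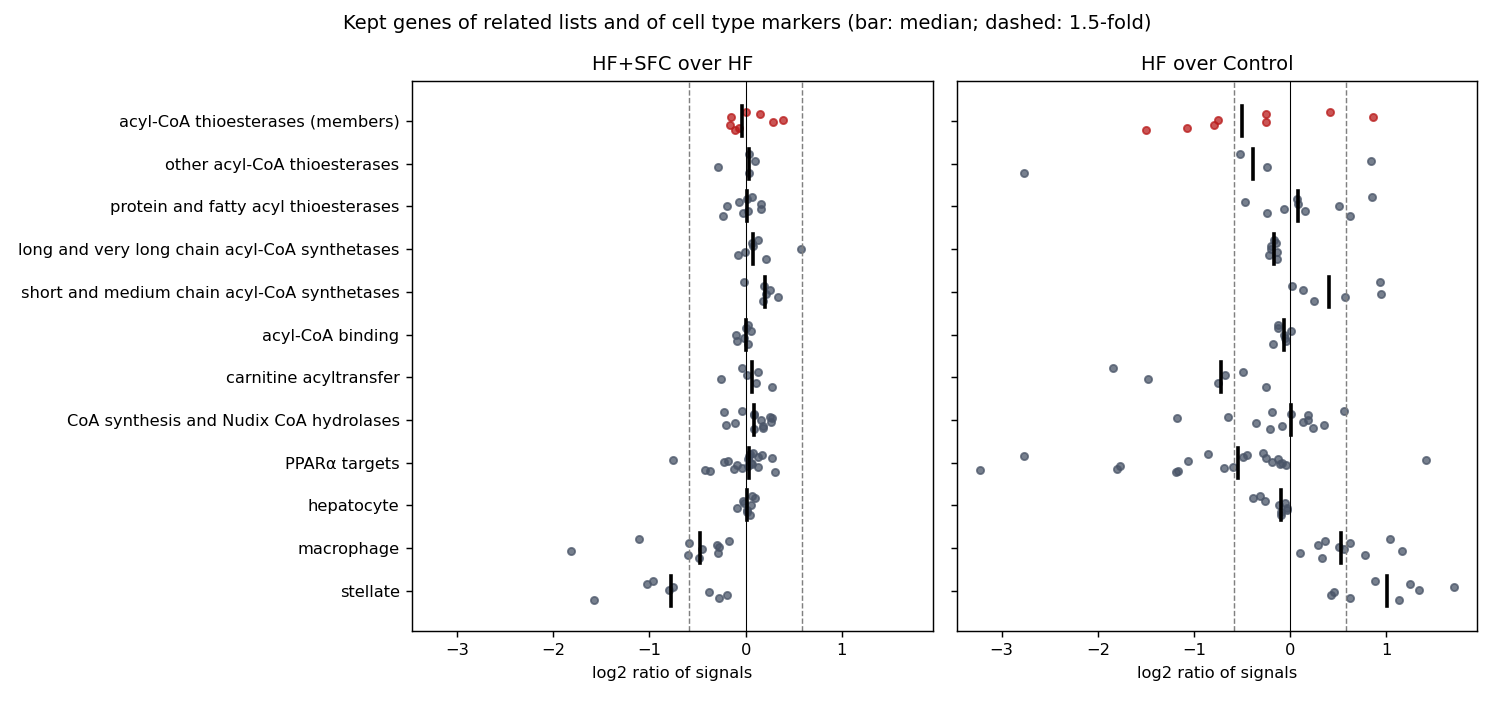
Log2 ratios (x axis) of HF+SFC over HF (left) and HF over Control (right) for the kept genes of the member group (red), of related lists and of cell type markers (rows); each point is a gene, black bars are medians and dashed lines mark 1.5-fold. Carnitine acyltransfer genes have a median of -0.72 and PPARα targets of -0.54 on the right, next to -0.50 for the members (-0.25 without Acot3, -0.75 without Acot9).

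The livers were whole tissue, so that fewer cells of a type and less RNA per cell cannot be told apart. Hepatocyte markers, which include Alb and Apob, had summed signals of 401056 in HF+SFC, 398316 in HF and 433141 in Control. In any comparison 0 of 9 were beyond 1.5-fold, while for HF over Control all 9 were below 0, with a median of -0.09. They are very bright, with signals between 11071 and 68088, and whether ratios keep their size at such signals was not tested. Macrophage markers had sums of 18036, 25012 and 17878 in HF+SFC, HF and Control, and of the 10 genes 4 were higher by 1.5-fold in HF over Control (median 0.53) and 4 lower in HF+SFC over HF (median -0.47). Stellate cell markers had sums of 8953 in HF+SFC, 13418 in HF and 7041 in Control, with 6 of 8 higher in HF over Control (median 1.01) and 5 lower in HF+SFC over HF (median -0.78). Endothelial markers had sums of 4819 in HF+SFC, 5240 in HF and 4530 in Control, with 0 of 6 beyond 1.5-fold, and lymphocyte markers, of which 2 of 6 were kept, had sums of 523 in HF+SFC, 1155 in HF and 635 in Control. The high HF sum came from Ccl5, with 146 in HF+SFC, 754 in HF and 293 in Control, while Cd8a, the other kept marker, had 196, 145 and 165 in HF+SFC, HF and Control. Cholangiocyte markers, of which 3 of 4 were kept, had sums of 266 in HF+SFC, 354 in HF and 334 in Control. Of these 3, Epcam was higher in HF over Control, at 0.69, and Sox9 lower, at -0.83. In HF+SFC over HF, 2 of the 3 were lower and 0 higher. Adipocyte markers were dim, with 0 of 3 kept and signals between 4.31 and 50.4. The part of other cell types in the values of the members was not tested.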

How the data were processed

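Liver RNA was measured in 3 pools, 1 for each diet, on a commercial Affymetrix mouse expression array with 45101 probe sets, 64 of them controls. The deposited values were intensities made by the authors with MAS5, with a version not given in the sources used here. Each array had a 2% trimmed mean of 500.004, so that differences in total signal had been removed before deposit, and 1 array per group limits the precision. The annotation of the platform gave gene names: 34945 probe sets name 1 gene, 932 several and 9160 are not listed. All 8 member genes were found in a RefSeq table of GRCm38.p6 by identifier, which was used for names and gene order.

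Log2 ratios were computed with Python 3.11.15, numpy 2.4.6, pandas 2.3.3 and statsmodels 0.14.6, and the steps were tested on simulated data. All kept members were named, and from each list up to 4 genes with the largest ratio in HF over Control or HF+SFC over HF, of which some are given. Likeness to Acot2 was the Euclidean distance of log2 signals centred over the 3 arrays. Members and lists were chosen with earlier results of these data known. The alternatives were quantile, median and lowess (fraction 0.3) scaling, no filter, the upper 25% of signal, the array median as a floor, 16 added to each signal before the log as a pseudocount, medians of all kept probe sets in place of the brightest, exclusion of the suffixes _x_at, _s_at and _a_at, and a 2-fold threshold.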

Additional observations from a re-analysis of the deposited data

How the results depend on the processing

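Under 10 alternatives, and 1 chosen after seeing the data that read Acot2 through the probe set it shares with Acot1, 91 of 96 counts and medians of the members stayed within 1.5 times or 1 SD of the reported value. That SD is the one between probe sets of a gene, which is not the spread of a median. A move of the HF over Control median from -0.50 to -0.25 passed, as did the count of lower members going from 4 to 3. Of 234 log2 ratios of single genes 231 stayed within 1 SD, and 0 ratios beyond 1.5-fold changed sign. Many of these ratios could not move. A filter, the floor or the suffix exclusion repeats the same ratio where the gene is still read, and 5 genes have 1 kept probe set. Acot2, Acot4 and Acot8 stayed at least 1.5-fold lower in HF than in Control under each scaling, filter and pseudocount. In the upper 25% of signal, where Acot9 was not kept, the members at least 1.5-fold higher numbered 0 in HF over Control and 0 in HF+SFC over Control. At a 2-fold threshold, 0 were higher in HF over Control, 2 lower in HF over Control (Acot2 and Acot3) and 0 higher in HF+SFC over Control. By the shared probe set Acot2 stood at -2.91 in HF over Control and -3.04 in HF+SFC over Control, and as the median over its probe sets at -0.51 for HF+SFC over HF, inside 1.5-fold. Leaving out ambiguous suffixes removed Acot3, which has no other probe set. Without Acot3 the median of the members was -0.25 in HF over Control, and without Acot9 it was -0.75, against -0.50 with both. The causes of these shifts, other than genes not being read, were not tested. No paired analysis was possible because each group is 1 array and the result comes from no test, and leaving out a replicate was not possible for the same reason. Dim signals limit the readings of Acot5, the dimmer Acot6 probe set and the dimmest Acot12 probe set, which were not kept. To a lesser degree they limit Acot9 and the dimmer Acot2 probe set, which were kept but lay below the upper 25% of signal.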
